A study of Mus musculus with 11 samples.

Results

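Retinas that had lost both Six3 and Six6 (DKO, 3 libraries) were compared with retinas that had lost Six3 alone (Six3KO, 3 libraries), so the comparison asks what loss of Six6 adds once Six3 is deleted. These 6 of the 11 libraries were chosen by the group named in the column headings of the deposited count table. Each library was total RNA from a pair of retinas of an NMRI mouse embryo at E13.5, and the groups held biological replicates. Dams received 0.15 mL of tamoxifen at 20 mg/mL on E10.5 and again on E11.5. DKO embryos were Six3F/F; CAGGCre-ERTM; Six6–/– and Six3KO embryos were Six3F/F; CAGGCre-ERTM; Six6+/+. Both groups thus carried floxed Six3 alleles, the same tamoxifen-activated Cre, which is driven by a broadly active promoter and not by one of the retina, and the same exposure to the drug, while Six6 was missing from conception. As a reference for loss of Six6 with Six3 present, 2 Six6KO libraries (Six3F/F; Six6–/–) and 3 WT libraries (Six3F/F; Six6+/+) were used. Neither of these groups carried Cre, and a further Six6KO sample had been removed by the authors for high duplication.

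Six3 and Six6 are closely related homeodomain transcription factors, relatives of the fly gene sine oculis, made in the early eye field and then in progenitors of the neural retina. Both can bind Groucho/TLE corepressors, and mice without Six6 have small retinas. At the stage sampled here most retinal cells are still dividing progenitors, and ganglion cells, cone precursors, horizontal cells and amacrine cells are the first neurons to appear. Levels below are CPM, the reads of a gene per 1000000 reads of its library, with library sizes scaled by TMM, and a gene is called when its Benjamini-Hochberg adjusted p in edgeR's quasi-likelihood test over all 13292 genes tested lay under 0.05. Log2 fold changes are DKO minus Six3KO unless another comparison is named, each with its standard error. In whole-tissue RNA, fewer cells of a type and less RNA per cell cannot be told apart.

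The targeted genes were lower where the labels name their loss, and reads of both remained. Six6 (chromosome 12, 72939892 to 72944899 in mm10) stood at 56.0, 52.8 and 99.8 CPM in DKO libraries rh010, rh011 and rh021. In Six3KO libraries rh006, rh012 and rh026 it stood at 335, 339 and 168 CPM. The groups did not overlap, and Six6 fell by 2.01 ± 0.36 on the log2 scale (adjusted p = 0.0465), a call lost without DKO rh010, DKO rh011, Six3KO rh006 or Six3KO rh012. Which part of the gene the null allele lacks was not given in the sources used here. Six6 also shares exonic sequence with 4930447C04Rik, an antisense gene, and the reads that remain cannot be assigned to either of them. Before scaling for depth, Six3 had 2615 reads in DKO and 2304 in Six3KO, against 6435 in WT and 3976 in the 2 Six6KO libraries. It stood at 57.3, 56.2 and 98.2 CPM in DKO and 73.8, 75.9 and 30.3 CPM in Six3KO. The groups overlapped, with a log2 fold change of 0.23 ± 0.42 (adjusted p = 0.896). That estimate for Six3 became -0.41 with a mesenchyme covariate and -1.01 with mesenchyme and lens covariates, so no direction is given. Library rh021 held the most Six3 and the most Six6 of the DKO libraries. Esr1, the estrogen receptor gene that supplies part of the Cre fusion, stood at 50.2 to 62.0 CPM in the DKO libraries and 52.0 to 57.1 CPM in the Six3KO libraries, and at 0.625 CPM or less in the 5 libraries without Cre.

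Depth ran from 9786661 reads (Six3KO rh026) to 16403191 reads (Six3KO rh006). The DKO libraries were more alike than the Six3KO libraries, with Spearman correlations across genes of 0.984 to 0.992 against 0.925 to 0.973. Markers of tissue next to the retina differed between the groups. The 23 lens genes measured summed to 51.1, 257 and 49.4 CPM in DKO, and to 353, 27173 and 21753 CPM in Six3KO rh006, rh012 and rh026. In each of DKO rh010 and rh021, 6 of these lens genes were at 0 reads, and none was at 0 in the other 4 libraries. The 25 periocular mesenchyme genes, such as the collagen genes Col1a1 and Col3a1, summed to 290.5, 400.2 and 325 CPM in DKO and to 1925, 734 and 5561 CPM in Six3KO. DKO thus lay below Six3KO for both lists in every library, and the part this has in the results that follow was examined only through the fits with these scores as covariates and without the lens-rich libraries.

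**Figure D1:**
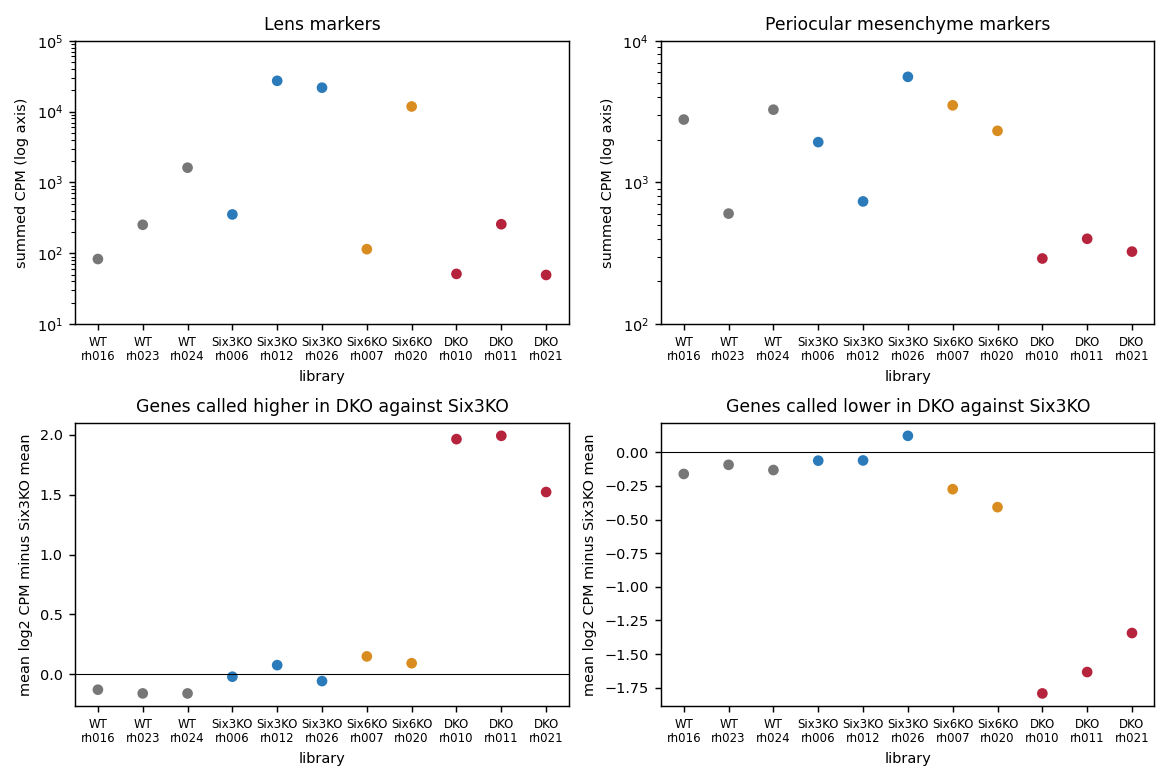
Summed CPM of lens and periocular mesenchyme genes (upper panels, log axes) and the mean log2 CPM of the genes called higher or lower in DKO against Six3KO, minus the Six3KO mean (lower panels), with 1 point per library of the 4 groups. Lens genes reach 27173 and 21753 CPM in Six3KO rh012 and rh026 alone of the 6 libraries compared. The called genes, which were chosen by DKO minus Six3KO, set the 3 DKO libraries apart from all 8 others.

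Between DKO and Six3KO 78 genes were called, 0.587% of those tested. The groups also differed in lens and mesenchyme RNA, so the calls cannot be assigned to loss of Six6 alone. Of these, 44 rose (0.331%) and 34 fell (0.256%). Patterning factors usually studied in the brain and spinal cord, among them Dbx1, Rfx4, Lmo3, Zic1 and Zic4, stood among the genes that rose. Otx2, Rbpms, Egflam, Ptprt and Spry1 stood among those that fell. The median log2 fold change was 1.47 among the genes that rose and -1.51 among those that fell, and 33 and 23 of them changed by at least 2-fold. DKO and Six3KO did not overlap for any of the 78, in a table where 13.4% of all genes lay higher in every DKO library and 10.53% lay lower. DKO also lay beyond all 8 libraries of the other 3 groups for 43 of the 44 and 33 of the 34. The exceptions were Akr1e1 and Six6 itself, named here for that reason. The genes were chosen by DKO minus Six3KO, so lying beyond the Six3KO libraries follows in part from that choice. The share of all genes that lay beyond all 8 was not counted.

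The plot of called genes by library shows the same genes in single libraries. They were chosen by DKO minus Six3KO, so the distance between those groups follows from the choice and is a description. The mean log2 CPM of the 44 genes that rose, set against the Six3KO mean, was 1.96 in DKO rh010, 1.99 in rh011 and 1.52 in rh021. It was 0.15 and 0.09 in the Six6KO libraries and between -0.16 and -0.13 in the WT libraries. For the 34 genes that fell, the DKO values were -1.79, -1.63 and -1.34, against -0.27 and -0.41 in Six6KO and -0.16 to -0.09 in WT. Library rh021 was the DKO library nearest to Six3KO for 39 of the 44 and 24 of the 34. The same count over all genes was not made. Library rh021 also had the most remaining Six6 and Six3 reads, and a link between these observations was not tested.

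How many genes passed depended on the libraries. With DKO rh010 left out 16 genes were called, with DKO rh011 left out 21, and with Six3KO rh026 left out 38, while leaving out DKO rh021 gave 91. Genes that rose numbered 23 without Six3KO rh006, 27 without rh012 and 25 without rh026, and genes that fell numbered 53 without rh006 and 13 without rh026. In total 16 genes were called in all 6 fits that left out 1 library: Filip1, Tfap2c, Dbx1, Car5b, Lmo3, Zic1, Glis3, Cdh13, Nudt4, Sh3bgrl2 and A730017C20Rik rose, and Otx2, Rbpms, Ptprt, Egflam and Anks1b fell. With the mesenchyme score alone as a covariate, 56 of the 78 calls were lost. Among them were Adam12, Calb1, Doc2b, Mab21l2, Ppp2r2b, Rfx4, Rit2, Spry1, Tmem132b and Zic4, and also Anks1b and Sh3bgrl2. With the mesenchyme and lens scores as covariates no gene was called (edgeR, smallest adjusted p = 0.0553, 2028 genes at an unadjusted p under 0.05), and none without both lens-rich Six3KO libraries (smallest adjusted p = 0.13, 835 genes), which leaves 1 Six3KO library that is assumed to vary like the other groups. All 78 genes kept their direction in both of these fits. The groups did not overlap for any of the 78, so leaving out Six3KO libraries could hardly reverse a direction. The log2 fold changes were a median of 0.939 times (0.573 to 1.5) those of the full comparison with both covariates. Without the lens-rich libraries they were a median of 0.996 times (0.633 to 1.34).

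Several transcriptional regulators that rose were close to silent in Six3KO. Dbx1 (chromosome 7, 49631499 to 49636849), a homeobox gene that divides the neural tube into progenitor domains, stood at 15.5, 15.2 and 8.01 CPM in DKO and at 0.0608, 0.0960 and 0.303 CPM in Six3KO. These values were 473 reads in DKO and 5 in Six3KO, a ratio, at equal depth, of 94.3 with an exact 95% interval of 40.1 to 292, which covers counting error only. The fitted log2 fold change was 6.40 ± 0.74 (adjusted p = 0.00615), and no Six6KO or WT library exceeded 0.214 CPM. Lmo3, a LIM-domain cofactor expressed in forebrain, stood at 23.3, 27.2 and 13.6 CPM in DKO and 1.40, 1.15 and 2.02 CPM in Six3KO (log2 fold change 3.80 ± 0.44, adjusted p = 0.00615). Rfx4, a winged-helix factor needed for the dorsal midline of the mouse brain, stood at 20.1, 28.6 and 6.42 CPM in DKO and 0.912, 0.480 and 0.101 CPM in Six3KO (5.09 ± 0.75, adjusted p = 0.0243). For all of these genes DKO rh021 was the lowest DKO library and still lay above every Six3KO library. The call of Rfx4 was lost without DKO rh010, DKO rh011 or Six3KO rh012.

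Filip1 (chromosome 9, 79815051 to 80012851), a filamin-A-interacting protein that restrains the migration of newborn neurons in rodent cortex, had the smallest p of all genes. It stood at 818, 794 and 535 CPM in DKO and 118, 121 and 95.8 CPM in Six3KO, and rose 6.40-fold (log2 fold change 2.68 ± 0.22, adjusted p = 0.0040). Filip1 was also near 120 CPM in both Six6KO libraries and at 38.7 to 62.3 CPM in WT, so either single mutant lay above WT and far below DKO. Promoter sequences from 250 bases before to 50 after the start are shown for Dbx1, Lmo3 and Filip1, which rose, and for Otx2, which fell, as examples from both directions. They come from RefSeq on GRCm38.p6, which matched 56 of the called genes, and are read 5′ to 3′ on the strand of the gene. Capitals mark TAAT, the core that many homeodomain proteins bind, in either orientation. The window of each gene with the most cores was chosen after the counts were seen.

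Dbx1 is at chr7:49636786-49637085, Lmo3 at chr6:138581919-138582218, Filip1 at chr9:80012802-80013101 and Otx2 at chr14:48665060-48665359, all on the minus strand.
Dbx1: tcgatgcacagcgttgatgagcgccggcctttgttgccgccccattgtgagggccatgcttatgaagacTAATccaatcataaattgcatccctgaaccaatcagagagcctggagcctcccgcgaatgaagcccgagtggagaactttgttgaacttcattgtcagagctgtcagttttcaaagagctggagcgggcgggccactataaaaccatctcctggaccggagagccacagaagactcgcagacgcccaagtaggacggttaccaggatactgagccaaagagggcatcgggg
Lmo3: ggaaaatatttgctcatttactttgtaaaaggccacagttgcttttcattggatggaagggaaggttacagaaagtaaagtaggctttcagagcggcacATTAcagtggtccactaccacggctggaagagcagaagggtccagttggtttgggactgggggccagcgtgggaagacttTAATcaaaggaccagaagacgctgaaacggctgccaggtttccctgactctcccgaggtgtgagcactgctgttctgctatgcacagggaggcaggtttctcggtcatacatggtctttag
Filip1: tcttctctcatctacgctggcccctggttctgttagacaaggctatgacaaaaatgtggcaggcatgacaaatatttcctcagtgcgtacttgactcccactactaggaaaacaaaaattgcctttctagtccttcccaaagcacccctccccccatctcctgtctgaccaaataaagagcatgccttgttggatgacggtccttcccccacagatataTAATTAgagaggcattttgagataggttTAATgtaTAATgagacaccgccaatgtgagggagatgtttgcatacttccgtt
Otx2: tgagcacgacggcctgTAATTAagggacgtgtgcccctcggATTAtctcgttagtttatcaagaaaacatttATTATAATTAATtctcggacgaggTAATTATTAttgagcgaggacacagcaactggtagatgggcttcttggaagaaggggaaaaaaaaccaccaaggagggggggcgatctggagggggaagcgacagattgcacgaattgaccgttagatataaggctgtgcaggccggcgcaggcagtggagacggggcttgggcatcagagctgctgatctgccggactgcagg

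The Otx2 window held 10 TAAT cores, counting overlapping ones, and 3 copies of TAATTA, in which a core stands on both strands. The Filip1 window held 4 cores, the Lmo3 window 2 and the Dbx1 window 1. A gene can have several windows, so shares are given per gene, counting a motif in any of its windows. A TAAT core stood in 45.7% of the 10179 tested genes with a window, in 17 of 32 genes that rose (53.1%) and in 11 of 24 that fell (45.8%). TAATTA stood in 3.20% of all these genes, in 1 of 32 that rose (3.12%) and in 3 of 24 that fell (12.5%). TGATAC, a core recognised by members of the Six3 and Six6 family, stood in 3.49% of all genes and in 1 gene of each called set. These are descriptions of letters in the windows and not of bound sites.

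Zic1 and Zic4, zinc finger genes that act in dorsal neural tube, both rose, and Zic1 is also made at the margin of the retina. Zic1 stood at 379, 378 and 265 CPM in DKO and 90.3, 100.2 and 107 CPM in Six3KO (log2 fold change 1.78 ± 0.20, adjusted p = 0.00615). Zic4 stood at 38.4, 39.3 and 26.7 CPM in DKO and 5.17, 8.06 and 9.89 CPM in Six3KO (2.18 ± 0.33, adjusted p = 0.0250). The groups were apart for both genes, and Six6KO and WT libraries lay in or near the Six3KO range. Zic1 and Zic4 overlap on opposite strands, and since the strand setting of the counting is unknown here, reads of this pair cannot be told apart. Wnt3a, a ligand of the roof plate and cortical hem, was carried by 306 reads in DKO and 18 in Six3KO (4.01 ± 0.69, adjusted p = 0.0393). Wnt3a and Zic4 lost their calls without DKO rh010, DKO rh011, Six3KO rh006 or Six3KO rh012, and Wnt3a also without Six3KO rh026.

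Among 16 measured genes on a list of neural tube and brain regulators, 6 rose, among them Dbx1, Rfx4, Lmo3, Wnt3a and Zic4, and none was called lower (0.331% and 0.256% of all genes), with a median log2 fold change of 0.94 (0.93 to 1.67 over the alternatives) against 0.01 over all genes. That list was drawn up with results of these libraries known, so its count is no independent evidence of a direction, and 6 of its other 10 members had estimates below 0. Of these, 5 had an unadjusted p under 0.05, 3 lay lower in every DKO library and DESeq2 called 2 lower. Over all 13292 genes, 1761 had an unadjusted p under 0.05 in either direction, and DESeq2 called 219 higher and 555 lower. The macrophage and microglia list had 14 of 16 estimates above 0 (6973 of all 13292 were) and a median of 0.43. No member was called (0 at an unadjusted p under 0.05 in edgeR, 0 called by DESeq2). Its genes summed to 188, 175 and 73.2 CPM in DKO and 102, 84.6 and 142 CPM in Six3KO, so the groups overlapped. In every DKO library 1 of the 16 lay higher, where 13.4% of all genes did.

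Tfap2c (chromosome 2, 172549593 to 172558622), which encodes AP-2 gamma, stood at 84.0, 108 and 61.3 CPM in DKO and at 6.14, 6.72 and 7.97 CPM in Six3KO. It rose 12.2-fold (log2 fold change 3.61 ± 0.38, adjusted p = 0.00607), and all 3 DKO libraries lay far above the other groups, none of which passed 12.4 CPM. Calb1, the calcium buffer calbindin of horizontal and some amacrine cells, stood at 11.3, 10.4 and 7.45 CPM in DKO and 1.03, 2.02 and 1.01 CPM in Six3KO (2.85 ± 0.43, adjusted p = 0.0250), a call lost without DKO rh010, DKO rh011, Six3KO rh006 or Six3KO rh026. Both genes are on the amacrine and horizontal cell list, where they alone were called (0.331% of all genes were called higher and 0.256% lower). The median was -0.26 over 19 genes. At an unadjusted p under 0.05 in edgeR 4 were higher and 8 lower, and DESeq2 called 2 higher and 8 lower. Of all 13292 genes, 1761 lay under that p in either direction, and DESeq2 called 219 higher and 555 lower. Of the 19, 4 lay higher and 8 lower in every DKO library, where 13.4% and 10.53% of all genes did. Tfap2a, another AP-2 gene of these cells, stood at 0.738, 1.82 and 2.46 CPM in DKO and 12.5, 7.97 and 34.7 CPM in Six3KO (-3.45 ± 0.71, adjusted p = 0.0712, not called). In the same libraries surface ectoderm genes summed to 34.4, 65.9 and 75.9 CPM in DKO and 262, 81.3 and 664 CPM in Six3KO. The part of surface ectoderm in the Tfap2a values was not tested.

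The other genes described among those that rose had varied roles. Car5b, a mitochondrial carbonic anhydrase, stood at 45.5, 41.7 and 32.9 CPM in DKO and 1.46, 1.54 and 2.22 CPM in Six3KO, a 23.1-fold rise (log2 fold change 4.53 ± 0.50, adjusted p = 0.00607). Tmem132b, a transmembrane protein gene, stood at 194, 197 and 65.8 CPM against 9.98, 8.25 and 11.9 CPM (3.92 ± 0.50, adjusted p = 0.0106). Its call was lost without DKO rh010, the library with 194 CPM. Rit2, a neuronal Ras-like GTPase, rose by 2.76 ± 0.47 (adjusted p = 0.0393), a call lost without any 1 of the 3 DKO libraries or Six3KO rh006 or rh026. Cdh13, a cadherin anchored to the membrane by a lipid, rose from 7.66, 8.25 and 11.3 CPM in Six3KO to 41.4, 33.96 and 42.6 CPM in DKO (2.12 ± 0.23, adjusted p = 0.00607). Glis3, a zinc finger factor, rose from 27.7, 24.5 and 24.9 CPM to 129.7, 101 and 68.3 CPM (1.96 ± 0.20, adjusted p = 0.00607). For Cdh13 and Glis3 every DKO library stood above every library of the other 3 groups. Smaller rises with little spread were seen for Nudt4, a phosphohydrolase of inositol phosphates (2.00-fold), which lay at 556 to 610 CPM in DKO and 285 to 302 CPM in Six3KO. Cdh13, Glis3 and Nudt4 lie outside the rule for named genes and were picked after their values were seen, as were Sh3bgrl2, A730017C20Rik and Anks1b.

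**Figure D2:**
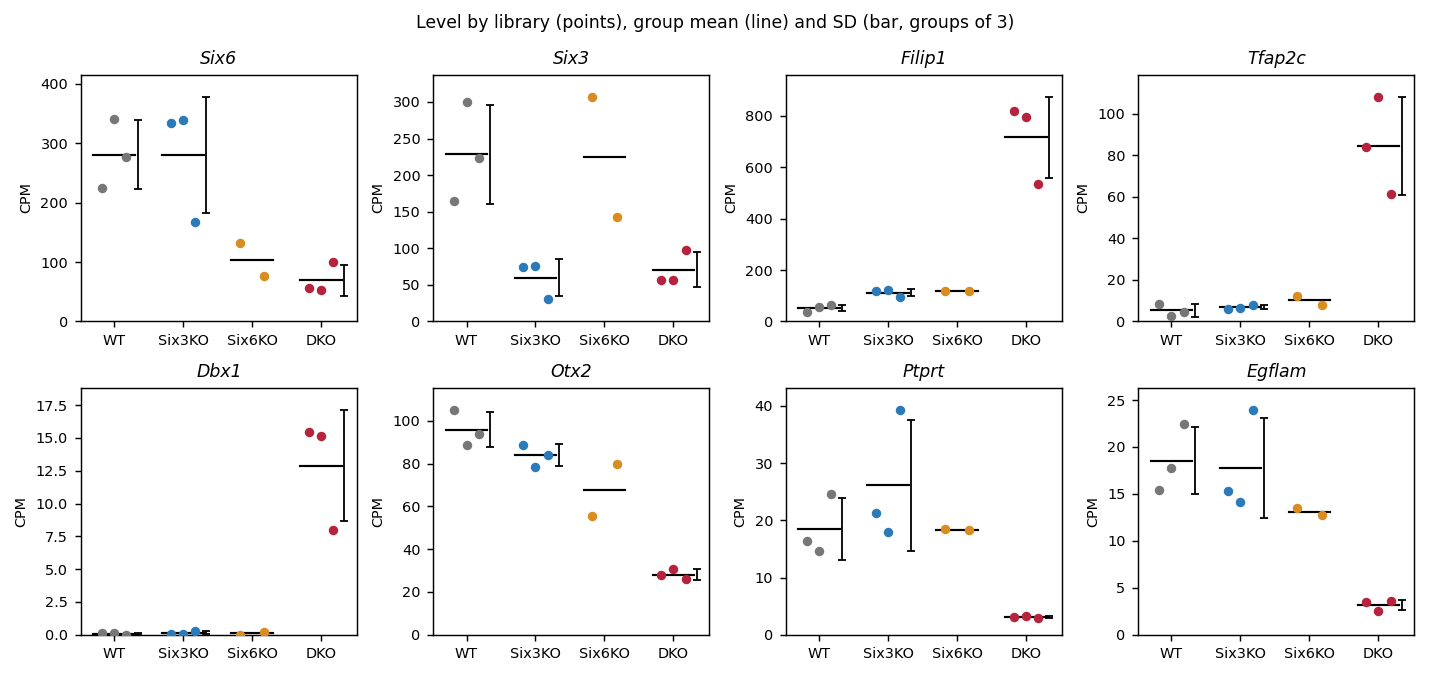
CPM of 8 genes (vertical axes, linear from 0) in each library (points) of the WT, Six3KO, Six6KO and DKO groups, with the group mean (line) and the SD of groups of 3 (bar). Filip1, Tfap2c and Dbx1 are high in the 3 DKO libraries alone, and Otx2, Ptprt and Egflam are low in the 3 DKO libraries alone.

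The plot of levels by library also shows genes that were lower in DKO than in all 8 other libraries. Otx2 (chromosome 14, 48657677 to 48673819), a homeobox factor needed for photoreceptor and bipolar fates and for pigment epithelium, stood at 27.7, 30.8 and 25.8 CPM in DKO. It stood at 88.7, 78.5 and 84.1 CPM in Six3KO, and fell by 1.58 ± 0.14 on the log2 scale (adjusted p = 0.0058). The 3 DKO libraries lay below all others, whose lowest was Six6KO rh007 at 55.6 CPM. Six6KO rh020 stood at 79.6 CPM and the WT libraries at 88.8 to 104.9 CPM (Six6KO minus WT, -0.50 ± 0.16, adjusted p = 0.991, not called). Exons of Otx2 overlap those of Otx2os1 on the other strand. Markers of the pigment epithelium, a tissue that also makes Otx2, summed to 828, 864 and 309 CPM in DKO and 1491, 100.01 and 2788 CPM in Six3KO. Their part in the fall of Otx2 was not tested.

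Of the 10 photoreceptor precursor genes measured, 1 was called (Otx2, lower), 9 had estimates below 0, and 7 lay lower in every DKO library. Over all 13292 genes, 0.256% were called lower, 6319 had estimates below 0 and 10.53% lay lower in every DKO library. The median log2 fold change was -1.73, against 0.01 over all genes, and it ran from -2.05 to -1.53 over the 14 alternatives. Prdm1, a zinc finger factor that keeps Otx2-positive cells on the photoreceptor path, stood at 3.36, 2.90 and 13.48 CPM in DKO and 55.6, 76.7 and 17.5 CPM in Six3KO (-2.92 ± 0.73, adjusted p = 0.126, not called). Gnb3, a transducin beta subunit, was at 1.11 CPM or less in DKO and at 2.52 to 3.74 CPM in Six3KO (-2.21 ± 0.43, adjusted p = 0.0582, not called). For Prdm1, the highest DKO library (rh021) and the lowest Six3KO library (rh026) came close to each other.

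Ganglion cell genes had estimates below 0 for 25 of 26 members, with a median of -0.65 (-1.75 to -0.43 over the alternatives), and 1 was called. Over all 13292 genes, 6319 had estimates below 0 and 0.256% were called lower. Rbpms, an RNA-binding protein that marks ganglion cells, stood at 10.6, 14.3 and 13.9 CPM in DKO and 36.1, 32.1 and 42.1 CPM in Six3KO, and fell by 1.51 ± 0.17 (adjusted p = 0.00607). No DKO library reached the Six3KO range for Rbpms. In every DKO library 2 of the 26 lay lower, Rbpms among them, a share near the 10.53% of all genes, and 4 had an unadjusted p under 0.05. Neurogenic and Notch genes had a median of -0.24 over 24 members with none called (6 lower at an unadjusted p under 0.05 in edgeR, 3 lower by DESeq2). Of all 13292 genes, 1761 had an unadjusted p under 0.05 in either direction, and DESeq2 called 555 lower. Lfng, a glycosyltransferase that modifies Notch, stood at 7.46, 9.44 and 13.4 CPM in DKO and 23.5, 28.6 and 21.9 CPM in Six3KO (-1.29 ± 0.25, adjusted p = 0.0582).

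The other genes named for the size of their decrease had varied roles. Ptprt, a receptor tyrosine phosphatase, stood at 3.03, 3.31 and 3.01 CPM in DKO and 21.3, 17.9 and 39.2 CPM in Six3KO (log2 fold change -3.06 ± 0.32, adjusted p = 0.00607). Egflam, or pikachurin, which links dystroglycan to the photoreceptor synapse, stood at 3.44, 2.57 and 3.57 CPM in DKO and 15.3, 14.1 and 23.9 CPM in Six3KO (-2.47 ± 0.25, adjusted p = 0.00607). For both genes the DKO libraries were tightly grouped and below all 8 others, and for both Six3KO rh026 was the highest. Espn, an actin-bundling protein, was at 0.902, 0.663 and 2.14 CPM in DKO and 9.73, 15.4 and 9.79 CPM in Six3KO (-3.22 ± 0.41, adjusted p = 0.0106), a call lost without DKO rh010. Lypd1, a membrane-anchored modulator of nicotinic receptors, fell by 2.31 ± 0.32 (adjusted p = 0.0176), and Ppp2r2b, a neuronal subunit of protein phosphatase 2A, by 1.82 ± 0.27 (adjusted p = 0.0250). Doc2b, a calcium sensor of vesicle release, fell by 2.26 ± 0.39 (adjusted p = 0.0398) and lost its call in each of the 6 fits that left out 1 library. Egflam, Lypd1, Ppp2r2b and Doc2b share exonic bases with another annotated gene. Lypd1 lost its call without DKO rh010 or rh011, and Ppp2r2b without DKO rh010, DKO rh011, Six3KO rh006 or Six3KO rh026.

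Synm, an intermediate filament gene, stood at 4.43, 4.47 and 6.10 CPM in DKO and at 17.2, 50.3 and 36.6 CPM in Six3KO, where rh012 and rh026 also held the most lens RNA. In Six6KO rh020, with 11799 CPM of lens genes, Synm stood at 12.2 CPM. Its log2 fold change of -2.79 ± 0.43 (adjusted p = 0.0273) became -1.77 without both of those libraries, and the call was also lost without any 1 of the 3 DKO libraries, without Six3KO rh012 or without Six3KO rh026. Adam12, a metalloprotease of mesenchyme and muscle, fell by 2.13 ± 0.33 (adjusted p = 0.0273), a call lost without DKO rh010, DKO rh011, Six3KO rh012 or Six3KO rh026. No member of the lens list (23 genes) or of the periocular mesenchyme list (25 genes) was called by edgeR, although medians were -7.47 and -4.24. At an unadjusted p under 0.05, 23 and 22 of them were lower, and DESeq2 called 20 and 19 lower. Of all 13292 genes, 1761 lay under that p in either direction, and DESeq2 called 555 lower. Surface ectoderm genes (19 measured) had a median of -2.50, blood vessel genes (19) -1.31 and pigment epithelium genes (15) -2.74, again with none called by edgeR (14, 4 and 5 lower at an unadjusted p under 0.05, 9, 4 and 1 lower by DESeq2). With a mesenchyme covariate the medians became 0.22 for surface ectoderm, 3.45 for blood vessel and 2.56 for pigment epithelium, and the blood vessel median was 0.14 without Six3KO rh026, so no direction is given for these lists.

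Spry1, which encodes a feedback inhibitor induced by FGF signalling, stood at 3.03, 4.72 and 6.74 CPM in DKO and 18.2, 18.4 and 30.0 CPM in Six3KO, with the groups apart (-2.19 ± 0.32, adjusted p = 0.0210). Its call was lost without DKO rh010 or rh011. Spry1 was the 1 called gene of 18 FGF/MAPK feedback genes, of which 16 had estimates below 0 and 9 lay lower in every DKO library (10.53% of all genes did), with a median of -0.69 (-0.89 to -0.59 over the alternatives). Of all 13292 genes, 0.256% were called lower and 6319 had estimates below 0. Etv4, an ETS factor induced by FGF, stood at 2.79, 3.89 and 5.31 CPM in DKO and 9.12, 11.6 and 8.88 CPM in Six3KO (-1.30 ± 0.28, adjusted p = 0.0772). Shisa2, on the same list as a protein that holds back FGF and Wnt receptors, went the other way, at 308, 305 and 233 CPM in DKO and 106, 109.6 and 115 CPM in Six3KO (1.36 ± 0.25, adjusted p = 0.0544). Neither Etv4 nor Shisa2 passed the test. Spry1 shares exonic bases with a predicted gene on the other strand.

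The 26 retinal progenitor genes had a median log2 fold change of 0.00, with 1 called higher (Mab21l2) and 1 called lower (Six6). Among all genes tested 0.331% were called higher and 0.256% lower. Of the 26, 9 lay higher and 1 lower in every DKO library (13.4% and 10.53% of all genes). Mab21l2, a gene needed for eye growth in mice, stood at 555, 551 and 465 CPM in DKO and 217, 277 and 210.1 CPM in Six3KO (1.16 ± 0.16, adjusted p = 0.0155), with the groups apart, a call lost without DKO rh010, DKO rh011 or Six3KO rh026. It lies within Lrba on the opposite strand and shares exonic bases with it. Ccnd1, the cyclin of retinal progenitors, stood at 210.1, 204 and 584 CPM in DKO and 967, 1171 and 501 CPM in Six3KO, so that the groups overlapped through DKO rh021 and Six3KO rh026 (-1.40 ± 0.51, adjusted p = 0.273). The S phase list (25 genes) and the mitosis list (25 genes) had medians of -0.02 and 0.10 with none called (0 and 1 at an unadjusted p under 0.05 in edgeR, none by DESeq2). Of all 13292 genes, 1761 had an unadjusted p under 0.05, and DESeq2 called 774. Of the mitosis genes 22 had estimates above 0, as did 6973 of all 13292 genes. In every DKO library 5 mitosis genes lay higher (13.4% of all genes did), while no S phase gene was apart between the groups. The p53 target and apoptosis list (20 genes) had a median of -0.22 with none called (1 at an unadjusted p under 0.05, none by DESeq2), which became 0.38 with both covariates. With both covariates the progenitor median was -0.54 and those of S phase and mitosis were -0.26 and -0.16.

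**Figure D3:**
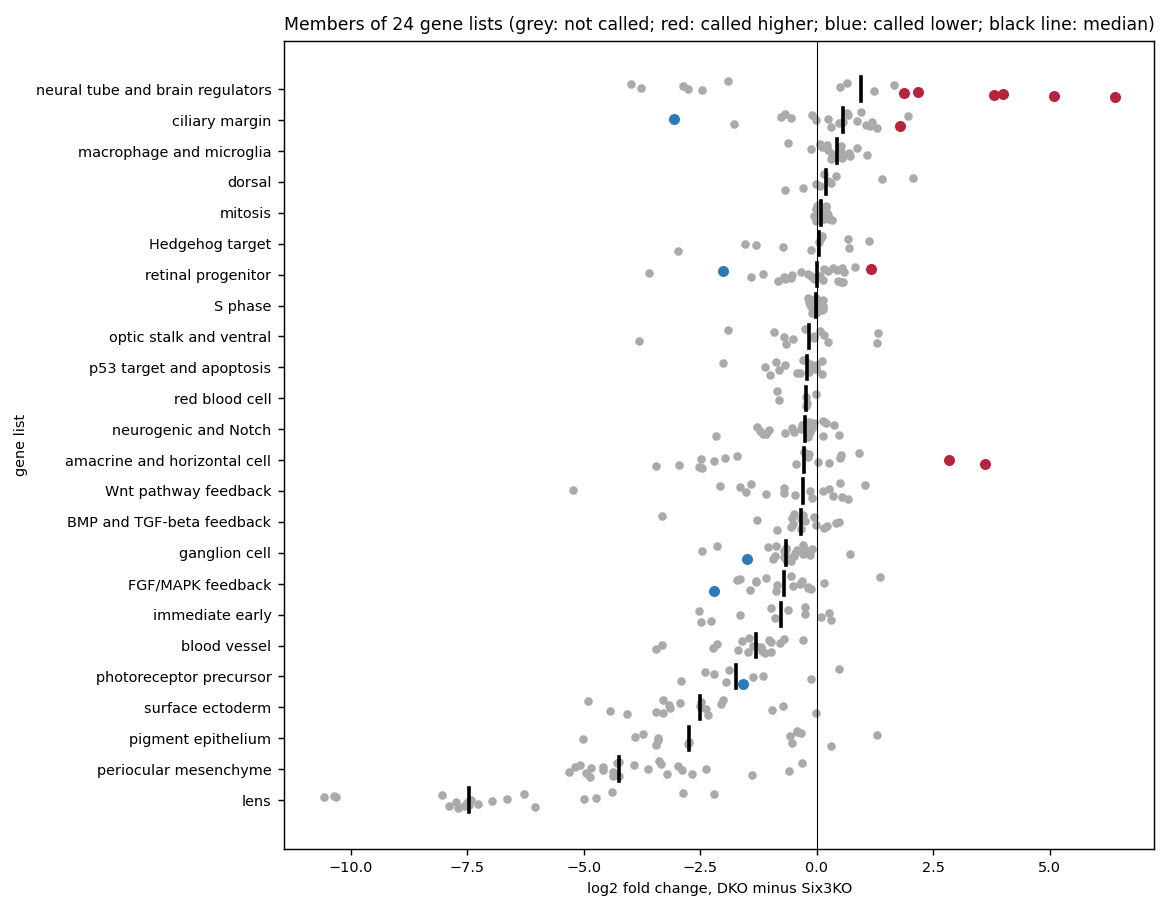
Log2 fold change of DKO minus Six3KO (horizontal axis) for each measured member of 24 gene lists (1 row per list), with called genes in red (higher) or blue (lower), others in grey, and the median as a black line. The neural tube and brain regulators hold 6 called genes to the right, while the lens (median -7.47) and periocular mesenchyme (-4.24) lists lie furthest to the left with no called gene.

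Regional and signalling lists held few called genes, as the plot of list members shows. Of 21 ciliary margin genes 1 rose (Zic1) and 1 fell (Ptprt), with a median of 0.57, and 7 members lay higher and 3 lower in every DKO library (13.4% and 10.53% of all genes). Among all genes tested 0.331% were called higher and 0.256% lower. Otx1, a marker shared by ciliary margin and pigment epithelium, stood at 123, 114 and 74.4 CPM in DKO and 34.5, 20.9 and 70.7 CPM in Six3KO (1.30 ± 0.50, adjusted p = 0.290). The dorsal (10 genes, median 0.20), optic stalk and ventral (14, -0.16), Wnt feedback (18, -0.30), Hedgehog target (11, 0.04) and BMP and TGF-beta feedback (17, -0.34) lists had no called gene. In edgeR, 3, 5, 4, 6 and 3 of their members had an unadjusted p under 0.05 in either direction, and DESeq2 called 2, 2, 2, 4 and 1. Of all 13292 genes, 1761 had an unadjusted p under 0.05, and DESeq2 called 774. Under the mesenchyme covariate the Wnt and BMP medians turned to 0.87 and 0.61, and without Six3KO rh012 the Hedgehog median turned to -0.21. Aldh1a1, a retinoic acid enzyme of the dorsal retina, stood at 1795, 1639 and 1749.6 CPM in DKO and 551, 696 and 718 CPM in Six3KO, but at 423 and 1696 CPM in the Six6KO libraries (1.40 ± 0.42, adjusted p = 0.175). Immediate early genes (12) and red blood cell genes (6) had medians of -0.76 and -0.24 with none called (7 and 0 at an unadjusted p under 0.05, 3 and 0 by DESeq2), and the red blood cell median was 0.22 without Six3KO rh026.

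Loss of Six6 with Six3 present gave smaller estimates for the genes called above. In Six6KO minus WT, a difference between other libraries that shared the fit and its estimate of the spread, no gene was called (0% of 13292; 518 at an unadjusted p under 0.05 in edgeR; 2 called by DESeq2). Of the 44 genes that rose in DKO, 29 (65.9%) had a positive estimate in Six6KO minus WT, where 51.55% of all genes did, and the median was 0.12. Of the 34 genes that fell, 25 (73.5%) had a negative estimate, where 48.45% of all genes did, and the median was -0.15. All 78 had the larger absolute estimate in the absence of Six3, the comparison by which they were chosen, so this count is a description. Filip1 stood at 119.6 and 118 CPM in Six6KO and at 38.7, 56.4 and 62.3 CPM in WT (1.18 ± 0.23, adjusted p = 0.991). Ptprt lay at 18.4 and 18.3 CPM in Six6KO and at 14.6 to 24.6 CPM in WT (-0.01 ± 0.33, adjusted p = 0.999), and Spry1 had an estimate of the opposite sign (0.43 ± 0.33, adjusted p = 0.991).

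**Figure D4:**
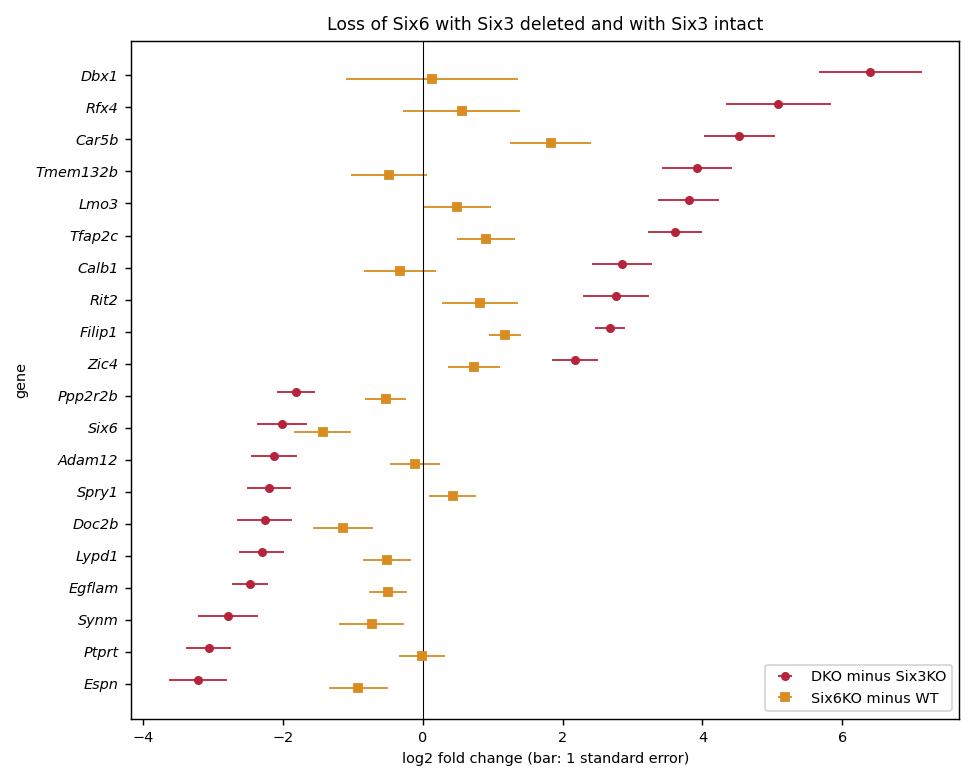
Log2 fold change with 1 standard error (bars) of DKO minus Six3KO (circles) and of Six6KO minus WT (squares) for the 10 genes named among those that rose and the 10 among those that fell. Every circle lies further from 0 than its square. Six6 itself has the nearest pair of values, at -2.01 and -1.43.

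The plot of both comparisons shows effects side by side, and their difference was tested gene by gene in the same model. No gene passed (0% of 13292; smallest adjusted p = 0.14 in edgeR; 1328 genes at an unadjusted p under 0.05), while DESeq2 called 241. The difference was 6.27 ± 1.57 for Dbx1 (adjusted p = 0.336), 4.40 ± 0.74 for Tmem132b (adjusted p = 0.233) and -3.05 ± 0.45 for Ptprt (adjusted p = 0.140). It was 1.50 ± 0.31 for Filip1 (adjusted p = 0.311), 2.71 ± 0.56 for Tfap2c (adjusted p = 0.311) and -1.07 ± 0.21 for Otx2 (adjusted p = 0.286). A larger effect of Six6 loss in the absence of Six3 was therefore not shown for any single gene by edgeR. The Six6KO libraries differed from each other as well, with lens genes summing to 114 CPM in rh007 and 11799 CPM in rh020. The Cre carried by DKO and Six3KO but not by Six6KO and WT cannot be told apart from the absence of Six3 in this difference.

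**Figure D5:**
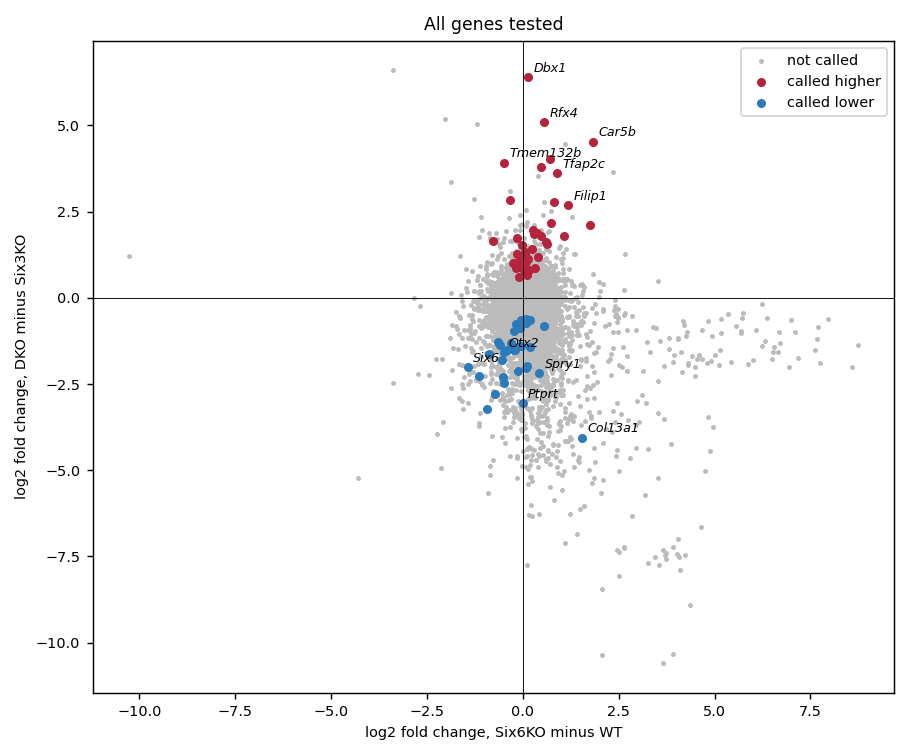
Log2 fold change of DKO minus Six3KO (vertical axis) against that of Six6KO minus WT (horizontal axis), with 1 point per tested gene (13292), genes called in DKO minus Six3KO in colour and a few of them named. Called genes spread further along the vertical axis than along the horizontal one, where their medians are 0.12 (called higher) and -0.15 (called lower). Some lie away from 0 on the horizontal axis, such as Car5b at 1.83 and Filip1 at 1.18, and uncalled genes extend to the lower right.

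Across all 13292 genes the effects of Six6 loss in the plot of all genes had a Pearson correlation of -0.29 and a Spearman correlation of -0.09, given as a description, since genes are not independent replicates. Lens genes contributed to the lower right of that plot, with a median of -7.47 in DKO minus Six3KO and 3.44 in Six6KO minus WT. Photoreceptor precursor genes had negative medians in both, at -1.73 and -1.08, and ganglion cell genes had -0.65 and -0.36. FGF/MAPK feedback genes had -0.69 and 0.12, and neural tube and brain regulators had 0.94 and 0.20.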

How the data were processed

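The deposited table holds raw counts for 13498 gene symbols in 11 libraries. The submitters' processing notes name Trim Galore 0.3.7, TopHat2 2.0.13 (build mm10), HTSeq 0.6.1, Cufflinks 2.2.1 and Cuffdiff. Neither the annotation nor the strand setting nor the rule for listing genes was given in the sources used here.

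Tests used edgeR 4.0.16 (R 4.3.3). A filter on low counts (filterByExpr, minimum 10) left 13292 genes, and TMM scaled the library sizes. All 11 libraries entered 1 robust quasi-likelihood fit with 4 group means and 1 shared estimate of the spread. The comparisons were DKO minus Six3KO, Six6KO minus WT and the difference of both, each adjusted by Benjamini-Hochberg over all tested genes with a threshold of 0.05. A standard error is the size of the log2 fold change divided by the square root of F. Replicates were checked for libraries deposited in duplicate, and none was found (chi-square of the counts 9.85 to 77.9 times its degrees of freedom). The fit was tested on simulated data.

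Named genes are Six3, Six6, Esr1, the 10 higher and 10 lower called genes with the largest change (mean of at least 5 CPM, groups apart, predicted genes and other non-coding or Y-linked classes left out) and up to 3 members of each of 24 lists with the smallest p. The comparison, its members and the gene lists were chosen with earlier results of these data known. List scores average the log2 CPM of the members (limma 3.58.1, prior count 2). Positions are from GENCODE vM21 (GRCm38), where 97.9% of symbols matched 1 gene and 22 of the 77 called genes placed in this way share exonic bases with a neighbour. Alternatives were other size factors, no scaling, no filter, DESeq2 1.42.0, a fit restricted to the groups compared, mesenchyme and lens scores as covariates, and each library left out in turn. Leaving out Six3KO rh012 and rh026 together was added after seeing the data.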

Additional observations from a re-analysis of the deposited data

How the results depend on the processing

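For DKO minus Six3KO, all 78 called genes kept their direction in all 14 alternatives, and no call held in every one. DKO and Six3KO did not overlap for any of the 78, and the alternatives reuse the libraries that chose these genes. The kept direction thus follows largely from that choice and is a description. Counts of called genes (all, higher, lower) were 774, 219 and 555 with DESeq2 (all 78 among them), 62, 41 and 21 in the 2 groups alone (41 shared), and 47, 31 and 16 with the mesenchyme covariate (22 shared). They were 0, 0 and 0 with the mesenchyme and lens covariates and without both lens-rich Six3KO libraries. With 1 library left out they ran from 16 to 91, 11 to 49 and 5 to 53. Relative log expression factors (80), no scaling (81) and no filter (78) stayed within 1.5 times the main count. The covariates were estimated from 11 libraries, in which mesenchyme and lens scores differ between the groups.

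For Six6KO minus WT, 0 genes were called in the main comparison, 2 with DESeq2, 10 in the 2 groups alone and 0 to 1 with 1 library left out. For the difference of both effects these counts were 0, 241 with DESeq2 and 0 to 3 with 1 library left out. A fit on 2 groups alone cannot give that difference. Of 1203 alternative values for 86 named genes, 1016 kept their side of the threshold, with the same sign or a shift of at most 1 standard error, 116 lost a call, 52 gained one (37 of them in DESeq2), 19 of uncalled genes changed sign by more than that, and no called gene changed sign.

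No paired analysis was possible because the columns carry library names and no replicate numbers. Depth limits genes with few reads, such as Dbx1 in Six3KO (5 reads).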

Other observations

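The following called genes were picked after their values were seen. Erbb4, a neuregulin receptor, stood at 125, 154 and 76.9 CPM in DKO and 35.0, 35.8 and 31.3 CPM in Six3KO (log2 fold change 1.80 ± 0.23, adjusted p = 0.0106), and Cntnap2, a neurexin relative, at 213, 229 and 177 CPM against 59.4, 77.3 and 34.6 CPM (1.85 ± 0.30, adjusted p = 0.0293). Rmst, a long noncoding RNA of midbrain and neural progenitors, stood at 629, 617 and 393 CPM in DKO and 150.1, 203 and 143 CPM in Six3KO (1.72 ± 0.26, adjusted p = 0.0250). Dach2, of the dachshund family that acts with Eya proteins and relatives of Six3, rose by 1.28 ± 0.21 (adjusted p = 0.0293). Every DKO library lay above every library of the other groups for these genes. Erbb4 lost its call without DKO rh010, Cntnap2 without DKO rh010, DKO rh011 or Six3KO rh006, Rmst without DKO rh010, DKO rh011, Six3KO rh006 or Six3KO rh026, and Dach2 without any 1 of the 3 DKO libraries or Six3KO rh012.

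Lama1, the laminin alpha chain of the inner limiting membrane, stood at 32.4, 40.5 and 54.8 CPM in DKO and 107, 129 and 130.15 CPM in Six3KO, and fell by 1.52 ± 0.24 (adjusted p = 0.0273), a call lost without DKO rh010, DKO rh011, Six3KO rh012 or Six3KO rh026. Tle3, a corepressor of the Groucho family to which Six3 and Six6 can bind, stood at 41.2, 43.8 and 56.4 CPM in DKO and 117, 102 and 131 CPM in Six3KO (-1.31 ± 0.23, adjusted p = 0.0450). Stat3, a transcription factor of cytokine signalling, stood at 16.7, 19.7 and 15.4 CPM in DKO and 28.5, 25.5 and 31.6 CPM in Six3KO (-0.72 ± 0.13, adjusted p = 0.0465). Tle3 and Stat3 had no overlap between the groups but lost their calls in each of the 6 fits that left out 1 library.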
